A study of Mus musculus with 622 samples.

Results

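The 8 genes Lcn2, Saa1, Saa2, Saa3, Cfb, C3, Cfi and Steap4, of the acute-phase response and the complement system, are described here across single cells of the mouse pancreatic islet. They are 8 of the 44448 genes in the table, and were named as a list with their values in these cells in view, so their levels are given as a description and none is tested. The data are 622 libraries, each from 1 cell of the islets of wild-type C57BL/6 mice, isolated and amplified in the separate chambers of a Fluidigm C1 instrument. No label names an animal, sex, age, chip or treatment for any cell, so the cells counted together as 1 sample without replicates, and no p-value was computed. A cell was kept with at least 1000 genes at 1 RPKM (read counts scaled by gene length and by each library's mapped reads), and 593 of the 622 passed. The kept cell with the fewest genes had 1099, and the highest count among those left out was 991. Of the 29 cells left out, 2 had Lcn2 at 1 RPKM or more, up to 22.8 RPKM, and none had another of the 8 genes at that level. Kept cells were grouped by the hormone with the most RPKM, into 55 glucagon-led, 27 somatostatin-led, 25 pancreatic polypeptide-led (PP-led) and 486 insulin-led cells. A cell was called multi-hormone when a second hormone held at least 10% of its hormone RPKM, which was so in 126 cells.

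Of the columns, 359 gave values at full precision and 263 gave values with 4 decimals, called rounded here. What this difference in format stands for is not known. Among insulin-led cells, 284 had a full-precision column and 202 a rounded one, with medians of 802942 and 1656490 mapped reads and of 5848 and 4254 genes at 1 RPKM. Kept cells ran from 135830 to 6111894 mapped reads. At the median depth of insulin-led cells, 1 RPKM of a gene of 1 kilobase was 1.09 reads, so low values rest on single reads. The largest hormone value names a group for every cell, so the grouping cannot check the islet label. Ghrelin led no kept cell. Of the kept cells, 38 had 3 or more markers of a non-endocrine cell type at 10 RPKM or more, 27 of them insulin-led.

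In the acute-phase response, inflammatory cytokines raise the output of a set of secreted proteins, most of it from the liver, and several of the genes are also switched on locally in epithelia and in islet cells exposed to cytokines. Lcn2 encodes lipocalin 2, which binds bacterial siderophores and so withholds iron, and Saa1, Saa2 and Saa3 encode serum amyloid A proteins, lipid-binding acute-phase proteins. C3 is the central complement protein, Cfb encodes the protease subunit of the alternative-pathway convertase that cleaves C3, and Cfi encodes complement factor I, a protease that inactivates C3b. Steap4 encodes a metalloreductase that reduces iron and copper and is induced by inflammatory cytokines.

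RefSeq's promoter table for GRCm38.p6 held 6 of the 8 genes, all but Cfb and Cfi. The 250 bases before the start of 4 of them are shown because these genes were read together in the cells described below, and because each window holds the letters TTGCNNAA, a motif of C/EBP factors, which are known regulators of acute-phase genes. The capitals mark these letters.
Lcn2, chr2:32387740-32387989, minus strand: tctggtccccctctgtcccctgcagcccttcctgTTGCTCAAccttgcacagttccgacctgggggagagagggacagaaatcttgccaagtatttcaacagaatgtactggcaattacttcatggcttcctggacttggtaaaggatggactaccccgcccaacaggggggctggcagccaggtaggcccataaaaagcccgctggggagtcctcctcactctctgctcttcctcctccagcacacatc
Saa2, chr7:46751583-46751832, plus strand: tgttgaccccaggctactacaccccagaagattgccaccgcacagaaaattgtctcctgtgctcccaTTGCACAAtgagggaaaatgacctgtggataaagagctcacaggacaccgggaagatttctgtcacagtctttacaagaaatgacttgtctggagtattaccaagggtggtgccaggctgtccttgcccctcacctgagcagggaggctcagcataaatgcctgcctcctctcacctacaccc
C3, chr17:57228137-57228386, minus strand: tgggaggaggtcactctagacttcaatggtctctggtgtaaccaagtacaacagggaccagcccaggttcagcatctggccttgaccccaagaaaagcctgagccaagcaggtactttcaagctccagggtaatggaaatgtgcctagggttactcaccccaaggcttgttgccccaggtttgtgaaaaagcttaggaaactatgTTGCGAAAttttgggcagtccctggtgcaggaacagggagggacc
Steap4, chr5:7960222-7960471, plus strand: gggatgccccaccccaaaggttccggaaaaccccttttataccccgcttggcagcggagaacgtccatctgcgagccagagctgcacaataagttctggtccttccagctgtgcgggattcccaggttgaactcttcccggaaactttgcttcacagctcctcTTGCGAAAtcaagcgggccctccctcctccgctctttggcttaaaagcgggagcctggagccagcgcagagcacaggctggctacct
TTGCNNAA was found on either strand in all 6 windows of the set, and in 9.56% of the 32851 promoter windows of the same length. It began at base -216 from the start of Lcn2, -182 of Saa1, -183 of Saa2, -99 of Saa3, -45 of C3 and -87 of Steap4. Its narrower form TTGCGNAA, a part of the same motif, was in 2 of the 6 windows, C3 and Steap4, and in 0.670% of all windows. TTCNNNGAA, the motif of STAT factors, and the NF-kB consensus were each in 1 of the 6, that of Steap4, and in 7.02% and 3.90% of all windows. A match describes letters only. The windows of Saa1 and Saa3 start inside a longer annotated transcript and are not printed.

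Lcn2 (Entrez 16819, chr2:32384637-32387739 of GRCm38, as are all positions here) had the most detections and the highest level of the 8 genes. It reached 1 RPKM in 6 of 55 glucagon-led cells, 2 of 27 somatostatin-led cells, 3 of 25 PP-led cells and 76 of 486 insulin-led cells. The glucagon-led share was 10.9% (95% exact Clopper-Pearson interval 4.11 to 22.2, for counting error only), and the insulin-led share was 15.6% (12.5 to 19.2). These intervals overlap. Both shares pool the column sets, and no kept rounded cell had Lcn2. In full-precision columns alone, the share was 18.2% of 33 glucagon-led, 16.7% of 12 somatostatin-led, 27.3% of 11 PP-led and 26.8% of 284 insulin-led cells. The PP-led share was thus not below the insulin-led one there, and all these intervals overlap. The level was extremely uneven. Of the 87 cells with Lcn2, 51 lay from 1 to under 10 RPKM, 12 from 10 to under 100, 14 from 100 to under 1000, and 10 at 1000 or above. Sample 335 held 53750 RPKM, Sample 158 held 36765, Sample 48 held 15244 and Sample 69 held 9862. Sample 335 alone gave 40.8% of all Lcn2 RPKM in insulin-led cells. At the low end, 34 of the 87 cells rested on 1 or 2 reads and 55 on fewer than 10 reads.

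**Figure D1:**
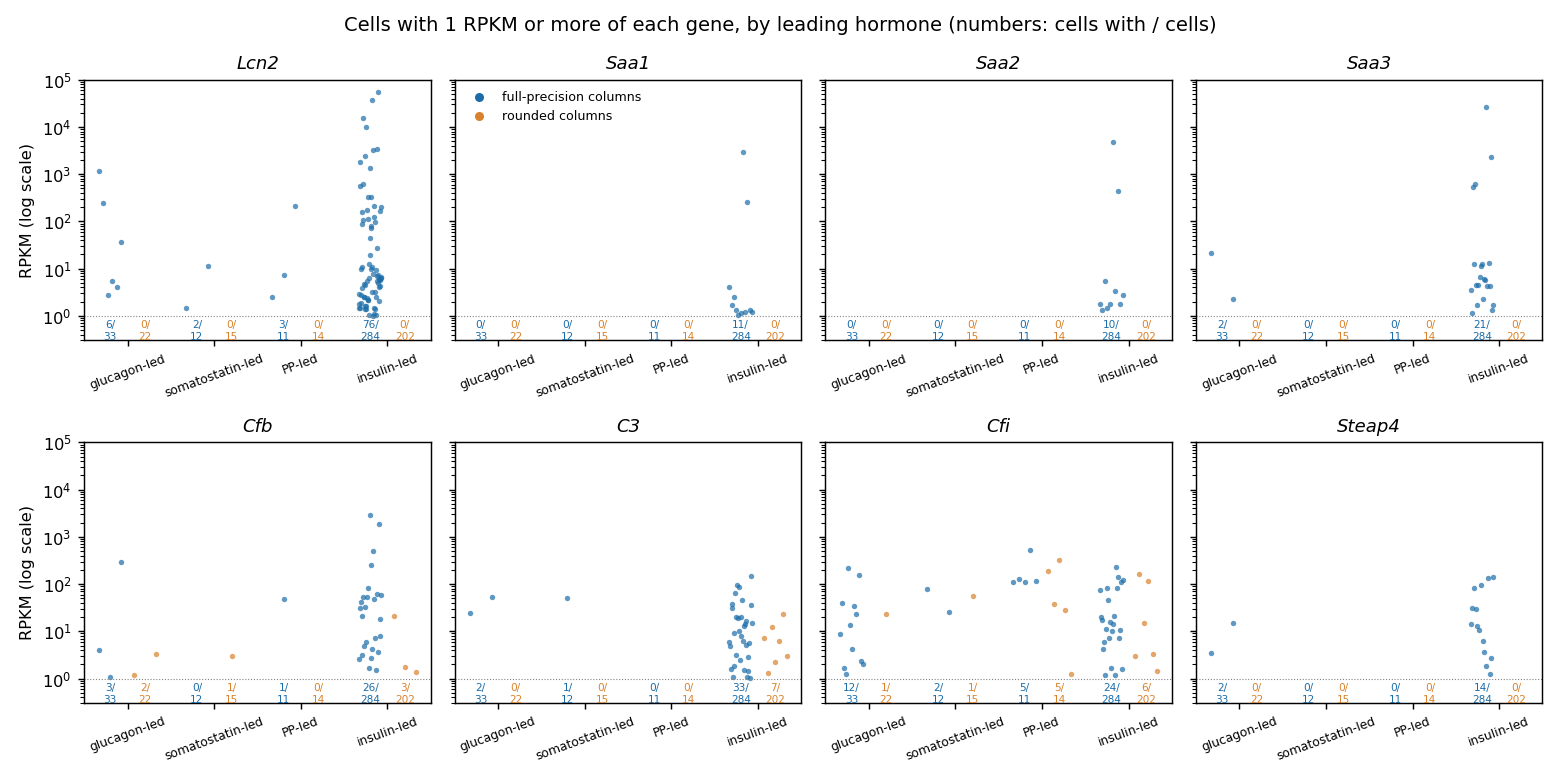
RPKM (log scale) of each gene in the kept cells that reached 1 RPKM, by leading hormone, with full-precision columns in blue and rounded columns in orange. Each point is 1 cell, and the numbers under the points give cells with the gene over all cells of the group. Lcn2 spans from 1.01 to 53750 RPKM in insulin-led cells, Lcn2, the Saa genes and Steap4 have no orange point, and Cfi is the gene with high points in PP-led cells of both column sets.

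The mean of Lcn2 was 26.0 RPKM in glucagon-led cells, 0.483 in somatostatin-led cells and 8.72 in PP-led cells, against 271 RPKM in insulin-led cells. The log2 ratio of glucagon-led over insulin-led cells was -3.33 with 1 RPKM added to each mean. Of all genes with a mean of 1 RPKM in either group, 14.1% were 2-fold or more lower and 7.12% were 2-fold or more higher in glucagon-led cells. All 4 means rest on few cells. Sample 18 held 79.7% of the glucagon-led sum, Sample 332 held 88.7% of the somatostatin-led sum and Sample 356 held 95.3% of the PP-led sum. Without the highest cell of its group, the mean was 5.37 RPKM in glucagon-led, 0.0567 RPKM in somatostatin-led, 0.426 RPKM in PP-led and 161 RPKM in insulin-led cells, and the insulin-led mean was 78.5 RPKM without Samples 158, 162 and 335. The glucagon-led over insulin-led ratio was -4.67 without the highest cell of each group. Detection and mean thus gave different pictures of Lcn2, since most cells with the gene held little of it.

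The high cells were not of 1 hormone class. Of the 24 cells with Lcn2 at 100 RPKM or more, 2 were glucagon-led, 1 was PP-led and 21 were insulin-led. The glucagon-led cells were Sample 18 at 1141 RPKM and Sample 34 at 241 RPKM, both multi-hormone with insulin second, and the PP-led cell was Sample 356 at 208 RPKM. The rest of the set was present in some of these 24 cells and absent in others. Of them, 13 held no other of the 8 genes at 1 RPKM, 2 held 1 other, and 9 held 2 or more others. Samples 48, 69, 65 and 11 held between 1768 and 15244 RPKM of Lcn2 with the 7 other genes all listed at 0. Their insulin stood at 5164, 178424, 27998 and 23655 RPKM in that order of samples. Median insulin was 159501 RPKM in the 21 full-precision insulin-led cells with Lcn2 at 100 RPKM or more, against 268862 RPKM in the 208 Lcn2-negative ones. The part of insulin content in these levels was not tested.

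Lcn2 was confined to the full-precision columns among the kept cells. Of insulin-led cells it was in 76 of 284 full-precision ones, 26.8% (21.7 to 32.3), and in 0 of 202 rounded ones, which allows a share of up to 1.49%. It was listed at 0 in every rounded glucagon-, somatostatin- and PP-led cell too. With each cell thinned to 250000 reads, leaving out 7 shallower cells, the shares were 18.6% of 280 and 0% of 201. Of the 8174 genes detected in at least as many full-precision insulin-led cells as Lcn2, 0.0122% (1 gene, Lcn2 itself) were in no rounded insulin-led cell. Saa1, Saa2, Saa3 and Steap4 were in 11, 10, 21 and 14 of 284 full-precision insulin-led cells and were also at 0 in the 202 rounded ones. All 4 were detected in at least 10 full-precision insulin-led cells, and 0.815% of the 15093 such genes were in no rounded one. Both shares take genes by their full-precision cells alone, the first with Lcn2's own count as its cut. They describe the difference and do not test it. Cfb was in 26 against 3 cells, C3 in 33 against 7, and Cfi in 24 against 6. Means of these 3 genes were 21.7 and 0.121 RPKM for Cfb, 2.62 and 0.273 RPKM for C3, and 3.68 and 1.51 RPKM for Cfi, full-precision first in each pair. The log2 ratios were 4.34, 1.51 and 0.90, while 8.24% of all genes were 2-fold or more higher in the full-precision cells and the median of all genes was 0.26. Without Samples 158, 162 and 335 the Cfb ratio was 2.08. Depth was higher in the rounded columns, and fewer genes were detected there. The part of either, or of the column format itself, in these differences was not tested.

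Within the full-precision columns Lcn2 also varied with where a cell stood in the order of the sample titles. The full-precision columns carried title numbers up to 362, and Lcn2 reached 1 RPKM in kept cells from Sample 1 to Sample 361. Between Sample 199 and Sample 279 no kept cell had Lcn2. That stretch, chosen after its values were seen as the longest without the gene, held 63 insulin-led cells, all at full precision, where 0 cells allow a share of up to 4.76%. Outside it, 76 of 221 full-precision insulin-led cells had Lcn2, or 34.4%. The cells of the stretch had a median of 1122475 reads and 5711 genes, against 802942 reads and 5848 genes in all full-precision insulin-led cells. Saa1, Saa2, Saa3 and Steap4 were absent there as well and Cfb and Cfi were in 1 cell each, whereas C3 was in 10 of the 63. What the title numbers follow is not stated, and whether they mark a chip or an animal cannot be told.

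**Figure D2:**
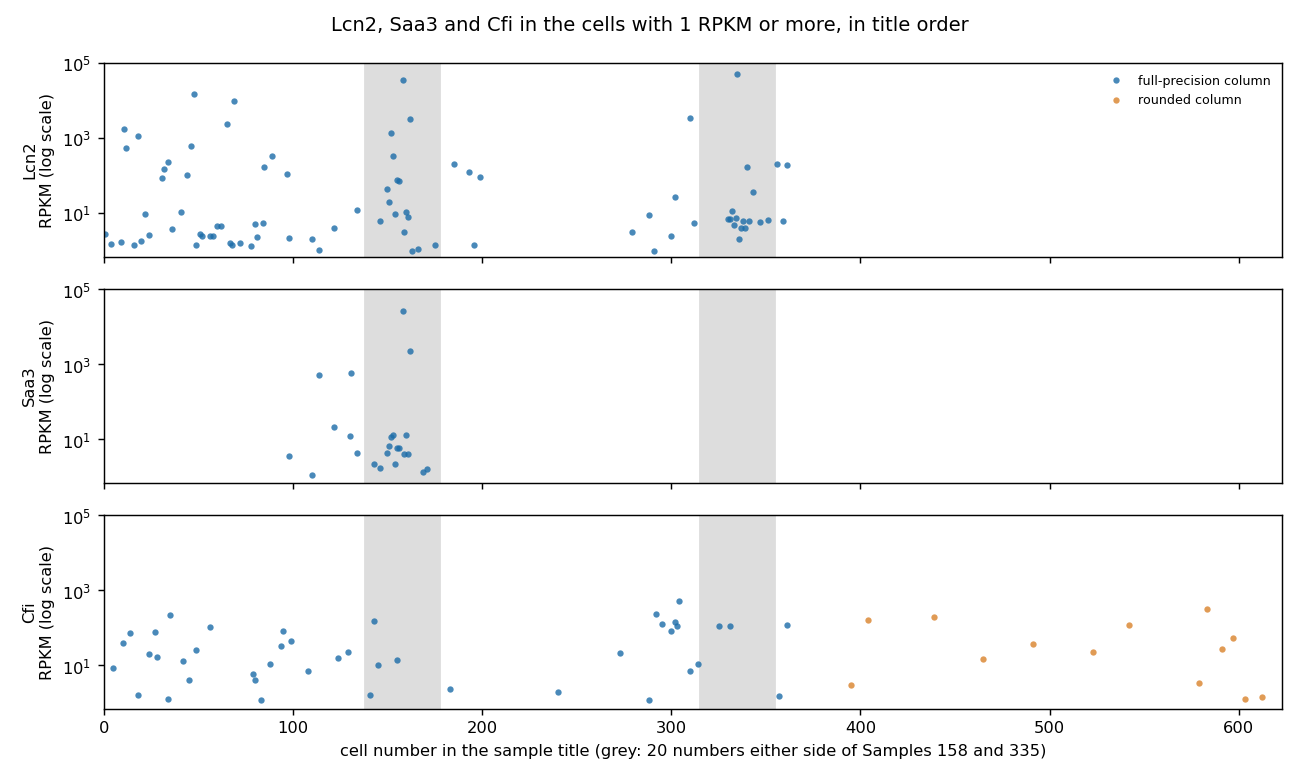
RPKM (log scale) of Lcn2, Saa3 and Cfi in kept cells with at least 1 RPKM, against the number in the sample title, with full-precision columns in blue and rounded columns in orange. Grey bands mark 20 title numbers on either side of Samples 158 and 335. Lcn2 has no point between 199 and 279 or beyond 361, low Saa3 points gather around Sample 158, and Cfi runs on into the rounded columns.

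Samples 335 and 158 each held several of the 8 genes at very high level together with insulin, and they did so with different members. Sample 335 had 53750 RPKM of Lcn2, 1904 of Cfb, 147 of C3 and 144 of Steap4, with Saa1, Saa2, Saa3 and Cfi listed at 0. Sample 158 had 36765 RPKM of Lcn2, 26735 of Saa3, 4871 of Saa2, 3013 of Saa1, 2968 of Cfb, 94.8 of C3 and 94.6 of Steap4, with Cfi listed at 0. Against the mean of the other full-precision insulin-led cells, 4 of the 8 genes were 8-fold or more higher in Sample 335, where 2.00% of all genes were. In Sample 158, 7 of the 8 were, and 2.10% of all genes. The cells were picked for their Lcn2, so these counts are a description. Both were insulin-led. Ins2 stood at 245407 RPKM in Sample 335 and 117442 RPKM in Sample 158, against a median of 233457 RPKM in the other cells. Ucn3, a peptide of mature beta cells, was at 1.75 and 67.0 RPKM, against a median of 350 RPKM, and the glucose transporter gene Slc2a2 was at 0 and 42.2 RPKM, against 95.9 RPKM. In Sample 158, Slc2a2 lay between the quartiles of the other cells, 21.0 and 220 RPKM. Its Ins2 lay below their lower quartile of 158512 RPKM. Ins1 was at 22096 RPKM in Sample 335 and 15876 RPKM in Sample 158, against a median of 30507 RPKM. The transcription factor gene Pdx1 was at 0 and 2.90 RPKM, against 5.13 RPKM. Iapp, Pcsk1 and Nkx6-1 were not low in both cells. Iapp, which encodes islet amyloid polypeptide, was at 64578 RPKM in Sample 335 and 90694 RPKM in Sample 158, against 58560 RPKM, and the prohormone convertase gene Pcsk1 was at 92.2 and 290 RPKM, against 108 RPKM. The transcription factor gene Nkx6-1 was at 0 and 19.6 RPKM, against 6.05 RPKM.

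Sample 335 also carried genes known from neutrophils. S100a9 stood at 10785 RPKM and S100a8 at 8580 RPKM, with at most 5.19 and 101 RPKM in the other full-precision insulin-led cells. Of the 7 neutrophil markers, Ngp, Camp and Ltf, which encode granule proteins, were at 0 in this cell, and so was Ptprc, the common leukocyte antigen. Both S100a genes were at 0 in Sample 158. Over the 76 Lcn2-positive full-precision insulin-led cells, the summed neutrophil markers ran from 0 to 19365 RPKM with a median of 0. The highest sum was that of Sample 335 itself, made up of its S100a8 and S100a9. Over the 208 Lcn2-negative cells the sums ran from 0 to 114 RPKM with a median of 0. Of the ductal class, 3 or more of 7 markers reached 10 RPKM in 3 of 76 Lcn2-positive cells and in 0 of 208 Lcn2-negative cells, and the summed ductal markers ran from 0 to 5493 RPKM with a median of 4.11 and from 0 to 6346 RPKM with a median of 2.81. Among these cells were Sample 310, at 3463 RPKM of Lcn2 with 4 ductal and 6 stellate or fibroblast markers, and Sample 340, at 169 RPKM of Lcn2 with 3 ductal markers. The part of cells of another type in these levels was not tested.

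**Figure D3:**
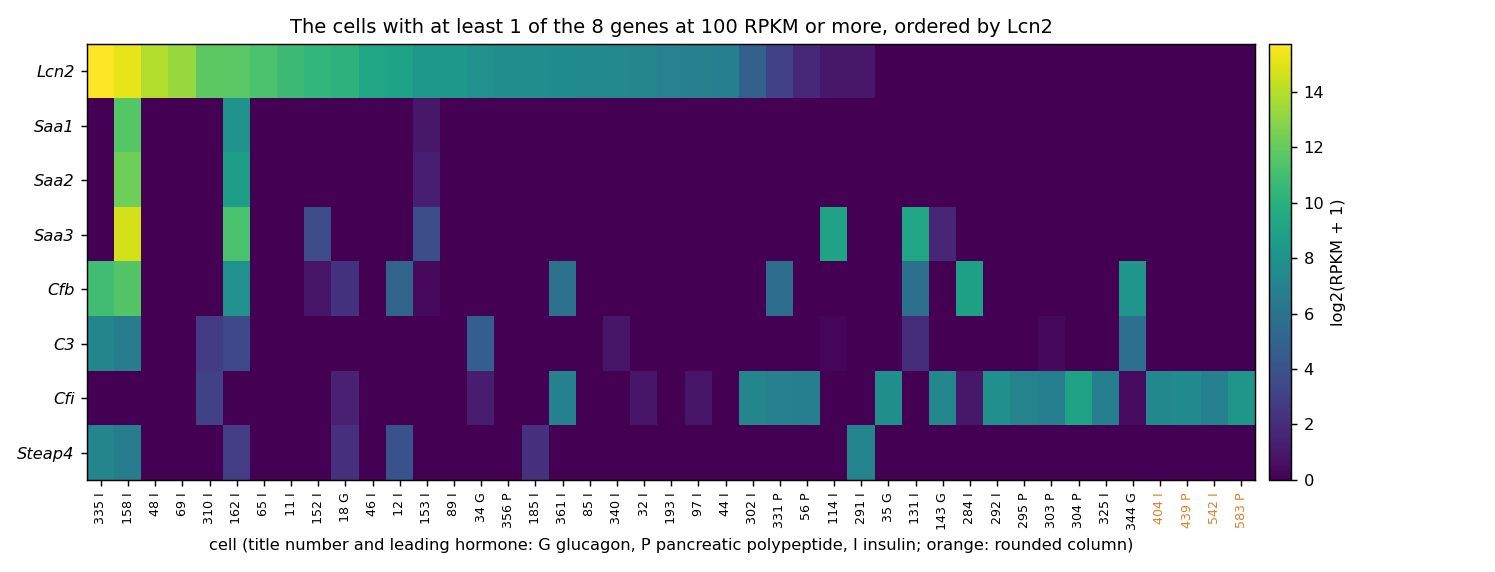
Log2(RPKM + 1) of the 8 genes in every kept cell with at least 1 of them at 100 RPKM or more, ordered by Lcn2, with the title number and leading hormone under each column. Samples 158 and 162 hold 7 genes each and Sample 335 holds 4, many other cells with high Lcn2 hold Lcn2 alone, and most cells with high Cfi hold little else.

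Sample 162, whose title number is close to 158, held the same 7 genes as Sample 158, all lower. It had 3269 RPKM of Lcn2 against 36765 RPKM in Sample 158, 2321 against 26735 RPKM of Saa3, 441 against 4871 RPKM of Saa2, 263 against 3013 RPKM of Saa1 and 248 against 2968 RPKM of Cfb. Each of the 7 stood between 6.44% and 10.7% of its level in Sample 158, with a median of 8.73%. Another 23 genes marked Sample 158, with at least 100 RPKM and 20-fold over the mean of other cells, and in Sample 162 these stood at 2.74% to 34.7% of Sample 158, with a median of 9.68%. Sample 162 was multi-hormone, with glucagon at 24.2% of its hormone RPKM. Whether RNA or reads of 1 cell were in the other library was not tested.

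Low values of some of the same genes gathered around Sample 158. Of the 38 kept cells within 20 title numbers of it, 15 had a Saa3 read, 14 of them with 1 to 9 reads. Among the 262 kept full-precision cells outside this window and that of Sample 335, 7 had one, or 2.67%. For Saa1 the counts were 8 of 38 against 2 of 262, for Saa2 8 of 38 against 2 of 262, and for Cfb 10 of 38 against 26 of 262. For Lcn2 they were 17 of 38 against 58 of 262, but the 262 cells include the stretch without Lcn2. Lcn2 was as common far from Sample 158. It was in 40.0% of insulin-led cells with title numbers 1 to 40 and 48.3% with 41 to 80, against 40.0% with 121 to 160. In the window, cells with a Saa3 read had a median of 4.41 RPKM, which is 0.0165% of the level in Sample 158. C3 and Steap4, both under 100 RPKM in Sample 158, were in 5 and 3 of the 38 cells, against 44 and 12 of 262. Around Sample 335, which had no Saa read, 0 of 38 kept cells had a Saa1, Saa2 or Saa3 read, and 14 of 38 had Lcn2, 12 of them with 1 to 9 reads. At 1 RPKM, the insulin-led cells with Saa1, Saa2 or Saa3 all had title numbers from 81 to 200. The absence of Saa reads near Sample 335 is thus not particular to its window. The cause was not tested.

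The serum amyloid A genes lie together on chromosome 7, Saa3 (Entrez 20210) at chr7:46711998-46719615, Saa1 (Entrez 20208) at chr7:46740497-46743181 and Saa2 (Entrez 20209) at chr7:46751833-46754313. The longest protein-coding transcripts of Saa1 and Saa2 were identical at 94.4% of aligned bases, so reads could be assigned to either, and the split between them is uncertain. Their 250-base windows were identical at 95.6%. Saa1 and Saa2 were at 0 in all 55 glucagon-led, 27 somatostatin-led and 25 PP-led cells, which allows shares of up to 5.45%, 11.1% and 12.0%. They were in 11 and 10 of 486 insulin-led cells, or 2.26% and 2.06%, and in 0.475% and 0.238% of the 421 insulin-led cells outside the windows around Samples 158 and 335. Of the 11 and 10 cells, 9 cells with Saa1 and 7 with Saa2 held 1 or 2 reads, and Samples 158 and 162 were the 2 cells above 10 RPKM for either gene. Sample 158 gave 91.5% of the Saa1 RPKM and 91.3% of the Saa2 RPKM of insulin-led cells. Saa1 stood at 59.7% of Saa2 in Sample 162 and at 61.8% in Sample 158.

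Saa3, which is known as the form made outside the liver, was found in more cells. All 23 kept cells with it had title numbers from 98 to 171. It reached 1 RPKM in 2 of 55 glucagon-led cells and in 21 of 486 insulin-led cells, or 4.32% (2.69 to 6.53), and in no somatostatin- or PP-led cell. The insulin-led share was 1.43% of the 421 cells outside the windows, 2.26% with at least 3 reads required and 2.08% with cells thinned to 250000 reads. Besides Samples 158 and 162, it was above 100 RPKM in Sample 131 at 604 RPKM and in Sample 114 at 535 RPKM. Sample 131 was led by insulin at 384 RPKM and had 10 of 10 macrophage and other immune markers at 10 RPKM or more, with 53.7 RPKM of Cfb and no Lcn2, so its markers go against the class that the insulin rule gave it. Sample 114 had 530145 RPKM of insulin, 1.04 RPKM of Lcn2 from 1 read, and no Saa1, Saa2 or Cfb. The gene Gm31882 overlaps Saa3 in the annotation, and the strand used in counting is not given in the sources used here, so reads of the pair cannot be told apart.

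Cfb (Entrez 14962, chr17:34856374-34862514) was in 5 of 55 glucagon-led, 1 of 27 somatostatin-led, 1 of 25 PP-led and 29 of 486 insulin-led cells. Its insulin-led share was 5.97% (4.03 to 8.46). Detections of Cfb rested on more reads than those of Lcn2, with a median of 27.0 reads against 3.00 reads, and 16 of the 29 insulin-led cells were at 10 RPKM or more. After Samples 158 and 335, the highest were Sample 284 at 491 RPKM and, among glucagon-led cells, Sample 344 at 288 RPKM. Sample 284 held none of the others at 1 RPKM, and Sample 344 also held 52.5 RPKM of C3. The glucagon-led mean was 5.41 RPKM and the insulin-led mean 12.7 RPKM, and the order of these means depends on single cells. Sample 344 held 96.7% of the glucagon-led sum, and the glucagon-led mean was 0.184 RPKM without it, while the insulin-led mean was 2.22 RPKM without Samples 158, 162 and 335. The log2 ratio was -1.10 over all cells and -2.69 without the highest cell of each group.

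C3 (Entrez 12266, chr17:57203967-57228136) had no cell with a very high level. It was in 2 of 55 glucagon-led, 1 of 27 somatostatin-led, 0 of 25 PP-led and 40 of 486 insulin-led cells, a share of 8.23% (5.94 to 11.0) for insulin-led cells. Its detections rested on a median of 45.0 reads, and the highest cell, Sample 335 at 147 RPKM, gave 18.4% of the insulin-led sum. The mean was 1.64 RPKM in insulin-led cells and 1.13 RPKM without Samples 158, 162 and 335. The somatostatin-led cell was Sample 248 at 51.7 RPKM, and it had at least 3 markers of a non-endocrine cell type. The microRNA gene Mir6978 overlaps C3 and Mir6972 overlaps Cfb, and their reads cannot be told apart from those of the host. Steap4 (Entrez 117167, chr5:7960472-7982213) was in 2 glucagon-led and 14 insulin-led cells, or 2.88% of insulin-led cells (1.58 to 4.79). Its levels there ran from 1.26 to 144 RPKM, with 144 RPKM in Sample 335, 135 RPKM in Sample 291 and 94.6 RPKM in Sample 158. Sample 291 held 1.02 RPKM of Lcn2 from 1 read and none of the 6 other genes.

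Most insulin-led cells held none of the 8 genes. Of the 486 cells, 330 held none at 1 RPKM, 117 held 1, 19 held 2, and 20 held 3 or more. These 20 were all full-precision cells, and 8 cells held 3 or more when 10 RPKM was required. Without the windows around Samples 158 and 335, 8 cells held 3 or more at 1 RPKM. Outside the windows, Sample 81 held 54.2 RPKM of Cfb, 38.6 of C3 and 30.3 of Steap4, and Sample 12 held 565 RPKM of Lcn2, 30.9 of Cfb and 14.6 of Steap4. In both, 3 genes of the set stood well above the level of single reads.

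Co-detection with Lcn2 was compared within the full-precision insulin-led cells, 76 Lcn2-positive and 208 Lcn2-negative ones. Median depth was 702547 and 823230 reads, and median genes 5830 and 5850. Saa1 was in 8 Lcn2-positive cells, or 10.5% (4.66 to 19.7), against 3 Lcn2-negative cells, or 1.44% (0.298 to 4.16), and Saa2 in 8 against 2, with 0.962% (0.117 to 3.43) of Lcn2-negative cells. Saa3 was in 17 Lcn2-positive cells, or 22.4% (13.6 to 33.4), against 4 Lcn2-negative cells, or 1.92% (0.526 to 4.85). Steap4 was in 9, or 11.8% (5.56 to 21.3), against 5, or 2.40% (0.785 to 5.52). Cfb was in 11, or 14.5% (7.45 to 24.4), against 15, or 7.21% (4.09 to 11.6). C3 was in 8, or 10.5%, against 25, or 12.0%, and Cfi in 7, or 9.21%, against 17, or 8.17%. The intervals parted for Saa1, Saa2, Saa3 and Steap4, and overlapped for Cfb, C3 and Cfi.

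Without the title-number windows, Saa3 was in 4 of 48 Lcn2-positive cells and 2 of 171 Lcn2-negative cells, or 8.33% (2.32 to 20.0) against 1.17% (0.142 to 4.16). Steap4 was then in 5 of 48, or 10.4% (3.47 to 22.7), against 4 of 171, or 2.34% (0.641 to 5.88). Saa1 was then in 1 of 48 (0.0527% to 11.1%) against 1 of 171 (0.0148% to 3.22%), and Saa2 in 1 of 48 against 0 of 171. All 4 pairs of intervals overlap without the windows. Among the other pairs, Steap4 was in 8 of 26 full-precision insulin-led cells with Cfb, or 30.8% (14.3 to 51.8), against 6 of 258 without it, or 2.33% (0.858 to 4.99). Outside the windows these counts were 5 of 19 and 4 of 200, or 26.3% (9.15 to 51.2) against 2.00% (0.548 to 5.04). Cfb with Steap4 was named for these values from among all pairs of the set, and its counts are small. Its intervals did not overlap without the windows, but they cover counting error only and are not a test.

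**Figure D4:**
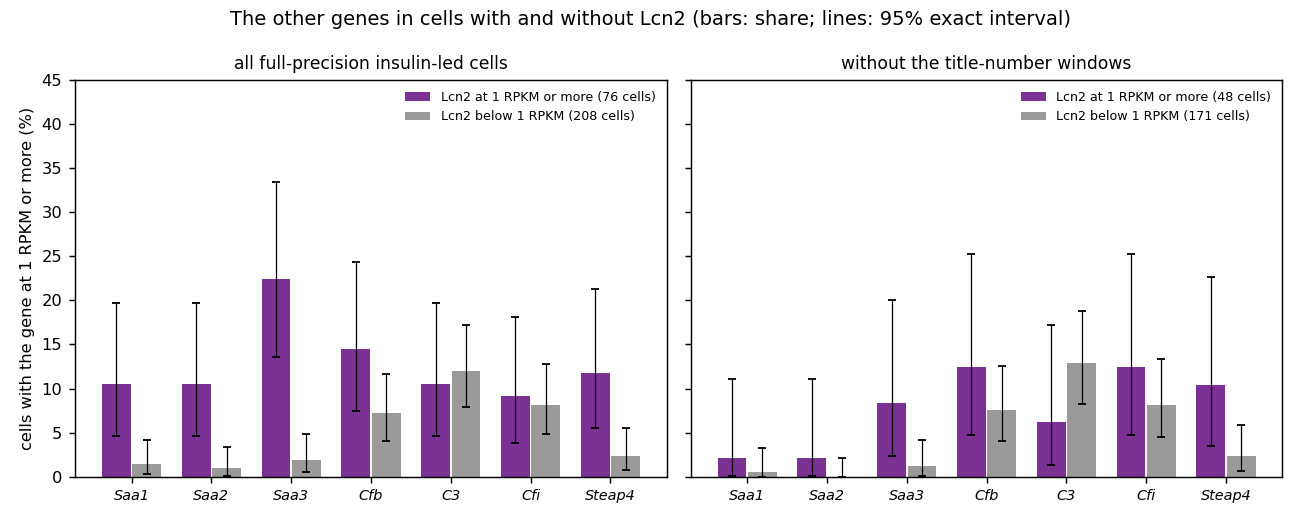
Share of full-precision insulin-led cells with each other gene at 1 RPKM or more, for cells with Lcn2 in purple and without it in grey, with bars for the shares and lines for their 95% exact intervals. The left panel holds all such cells and the right panel leaves out 20 title numbers on either side of Samples 158 and 335, where the Saa3 share of Lcn2-positive cells is 8.33% in place of 22.4%.

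In means, most of the difference between the Lcn2 groups rested on 3 cells, Samples 158, 162 and 335. Over the Lcn2-positive and Lcn2-negative full-precision insulin-led cells, Saa3 averaged 390 and 2.98 RPKM, Cfb 71.1 and 3.67 RPKM, C3 4.91 and 1.78 RPKM, and Steap4 6.08 and 0.527 RPKM. The log2 ratios were 6.62, 3.95, 1.09 and 2.21. Of all genes, 3.22% were 2-fold or more higher. Without these 3 cells the ratios were 1.25, 0.08, -0.06 and 1.38, with 3.36% of all genes 2-fold or more higher. The ratios that remained for Saa3 and Steap4 rest on 1 cell in each group. Sample 114, called Lcn2-positive from 1 read, held 86.7% of the Saa3 left in Lcn2-positive cells, and Sample 131, with its 10 immune markers, held 97.5% of that in Lcn2-negative cells. The Saa3 ratio was -0.90 without Sample 114, 3.14 without Sample 131, and 0.99 without both, at 1.14 and 0.0752 RPKM, so its direction turned with which single cell was left out. Sample 284 held 64.4% of the Cfb of Lcn2-negative cells. The Cfb ratio was 1.09 without it, -0.29 without Sample 134, the highest Lcn2-positive cell left, and 0.72 without both. Sample 291, also Lcn2-positive from 1 read, held 62.3% of the Steap4 left in Lcn2-positive cells. Sample 64 held 74.8% of that in Lcn2-negative cells. The Steap4 ratio was 0.49 without Sample 291, 1.81 without Sample 64 and 0.92 without both. With Lcn2 at 100 RPKM or more in place of 1, the 18 cells left without the 3 had ratios of -0.76 for Saa3, 0.39 for Cfb, -1.02 for C3 and 0.40 for Steap4 over the same 208 cells. The ratios of Saa1 and Saa2 were 5.44 and 6.12 with the 3 cells, and 0.18 and 0.26 without them. Cfi had 0.57 with the 3 cells and 0.62 without them.

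Cfi (Entrez 12630, chr3:129836727-129875332), which restrains C3 activity, was in larger shares of PP-led and glucagon-led than of insulin-led cells. It was in 13 of 55 glucagon-led cells, or 23.6% (13.2 to 37.0), in 3 of 27 somatostatin-led cells, or 11.1% (2.35 to 29.2), in 10 of 25 PP-led cells, or 40.0% (21.1 to 61.3), and in 30 of 486 insulin-led cells, or 6.17% (4.20 to 8.70). The shares fell in the order PP-led, glucagon-led, somatostatin-led and insulin-led. Neighbours in this order had overlapping intervals, while those of PP-led and of glucagon-led cells lay above that of insulin-led cells. The PP-led detections were high, with a median of 114 RPKM and 7 of 10 at 100 RPKM or more. Sample 304 held 539 RPKM, and Samples 583 and 439, both rounded, held 317 and 193 RPKM. Cfi averaged 63.1 RPKM in PP-led cells and 2.78 RPKM in insulin-led cells, a log2 ratio of 4.08, where 12.6% of all genes were 2-fold or more higher. It averaged 9.73 RPKM in glucagon-led cells, a log2 ratio of 1.50 over insulin-led cells, which was 0.84 without Sample 35, the highest glucagon-led cell, and -0.29 in the rounded columns alone. Both ratios share the insulin-led cells.

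The PP-led pattern of Cfi was present in both column sets. It was in 5 of 11 full-precision PP-led cells, with a mean of 91.0 RPKM against 3.68 RPKM in insulin-led cells, and in 5 of 14 rounded ones, with 41.2 RPKM against 1.51 RPKM. The log2 ratios were 4.30 and 4.07, beside 13.4% and 16.1% of all genes 2-fold or more higher. Sample 304 held 53.8% of the full-precision PP-led sum and Sample 583 held 55.1% of the rounded one. Without the highest cell of each group, the means were 46.2 against 2.88 RPKM and 19.9 against 0.710 RPKM, and both ratios were 3.61. The glucagon-led share was not the same in the sets, with 12 of 33 full-precision cells against 1 of 22 rounded cells, or 36.4% (20.4 to 54.9) against 4.55% (0.115 to 22.8). With each cell thinned to 250000 reads, Cfi was in 40.0% of PP-led and 22.6% of glucagon-led cells.

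Among insulin-led cells, Cfi went with a second hormone. It was in 20 of 76 multi-hormone insulin-led cells, or 26.3% (16.9 to 37.7), and in 10 of 410 single-hormone ones, or 2.44% (1.18 to 4.44). Where glucagon was the second hormone it was in 16 of 48 cells, or 33.3% (20.4 to 48.4), and where somatostatin was, in 3 of 17. Cells in which PP was second to insulin had it in 1 of 11. Of cells with 1 hormone alone, it was in 7 of 33 glucagon-led, 2 of 13 somatostatin-led and 6 of 11 PP-led cells, or 54.5% (23.4 to 83.3) of the last. Whether multi-hormone cells are doublets was not tested. For Lcn2 these intervals overlapped, with 14 of 76 multi-hormone insulin-led cells, or 18.4% (10.5 to 29.0), against 62 of 410 single-hormone ones, or 15.1% (11.8 to 19.0). Lcn2 was in 7 of 24 full-precision insulin-led cells with Cfi, or 29.2%, against 69 of 260 without it, or 26.5%. Gm36180 overlaps Cfi in the annotation, and their reads cannot be told apart without the strand.

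**Figure D5:**
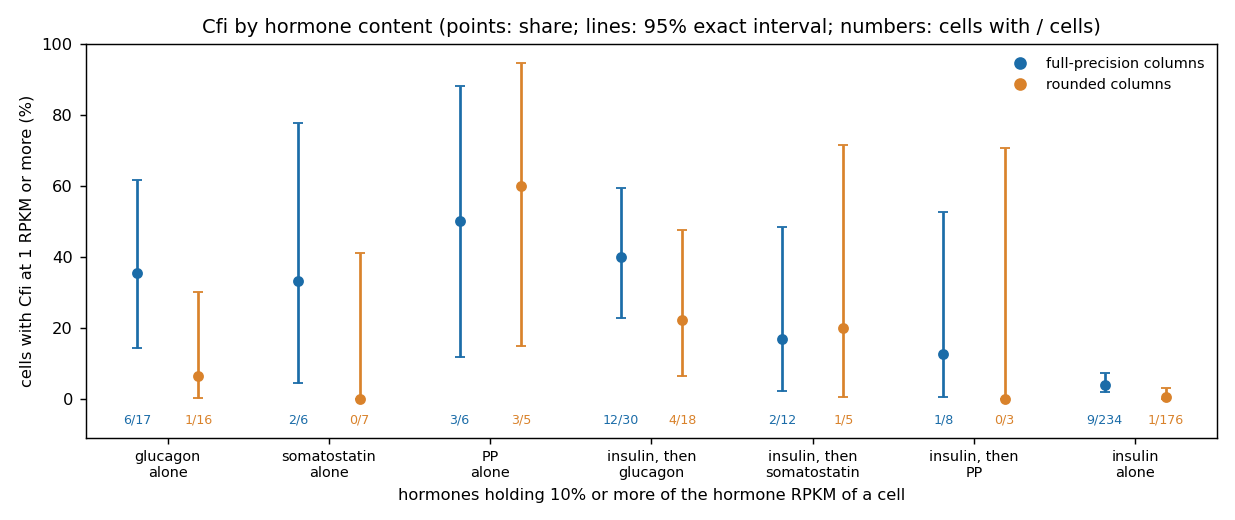
Share of cells with Cfi at 1 RPKM or more by the hormones that hold at least 10% of the hormone RPKM of a cell, with full-precision columns in blue and rounded columns in orange. Points are shares, lines are 95% exact intervals and the numbers give cells with Cfi over all cells. Cells of insulin alone lie at 9 of 234 and 1 of 176, below the shares of cells with PP alone in both column sets.

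The other genes of these pathways were taken from 6 lists with 117 genes, and no list was tested. The acute-phase genes besides the set were mostly silent in insulin-led cells: of 22, 1 was at 1 RPKM in at least 10% of them, Ttr, which encodes the thyroxine carrier transthyretin and was in 98.4%. In Sample 335, 5 of the 22 were 8-fold or more higher than in the other full-precision insulin-led cells, beside 2.00% of all genes. In Sample 158, 4 were, beside 2.10% of all genes, and 3 were shared. By 8-fold or more, 1 was lower in Sample 335 and 0 in Sample 158. The shared genes were Lrg1 at 138 RPKM in Sample 335 and 615 RPKM in Sample 158, Cp, which encodes ceruloplasmin, at 131 and 264 RPKM, and the protease inhibitor gene Serpina3n at 229 and 320 RPKM. Their means in the other cells were 0.301, 0.173 and 3.71 RPKM. Orm1, which encodes an acute-phase glycoprotein, was at 1200 RPKM in Sample 335 and at 0 in Sample 158. Trf, which encodes the iron carrier transferrin, was at 0 in Sample 335 and at 353 RPKM in Sample 158. Trf averaged 40.9 RPKM in Lcn2-positive and 6.58 RPKM in Lcn2-negative cells, a log2 ratio of 2.47 with Samples 158, 162 and 335 and 2.33 without them. Trf was at 1 RPKM in 7.61% of insulin-led cells, and the part of other single cells in its means was not tested. Of the 9 genes of the list with a mean of 1 RPKM, 5 were 2-fold or more higher and 1 lower in Lcn2-positive cells, and without the 3 cells 1 was higher and 2 lower among 6. Of all genes, 3.22% were 2-fold or more higher and 3.87% lower with the 3 cells, and 3.36% higher and 4.19% lower without them. These 2-fold shares, and the 8-fold shares of both cells, stand beside the counts of the other lists too. The 8-fold counts take in every gene of a list, while the shares cover genes at 1 RPKM or more on either side.

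Of the 32 other complement genes, 1 was 8-fold or more higher in Sample 335 and 2 in Sample 158, beside 2.00% and 2.10% of all genes. By 8-fold or more, 3 were lower in Sample 335 and 2 in Sample 158, beside 15.4% and 11.7% of all genes. C1ra, which encodes the protease C1r, was at 44.9 RPKM in Sample 335 and 179 RPKM in Sample 158, against a mean of 0.578 RPKM, and Serping1, which encodes the C1 inhibitor, was at 195 and 797 RPKM, against 51.3 RPKM. The genes of this list found in the largest shares of insulin-led cells included regulators of complement. Clu, which encodes clusterin, was at 1 RPKM or more in 78.8% of them, Cr1l in 62.8%, Serping1 in 55.1% and Cd59a in 46.5%. Between Lcn2-positive and Lcn2-negative cells, 3 of 16 genes of the list were 2-fold or more higher and 3 lower. The list's median log2 ratio of Lcn2-positive over Lcn2-negative cells was 0.04, where that of all genes was 0.01. C1qb, which encodes a chain of C1q made by macrophages, averaged 68.4 RPKM in Lcn2-positive and 11.1 RPKM in Lcn2-negative cells, where 1 and 3 cells had 3 or more macrophage and other immune markers at 10 RPKM. The part of those cells in this difference was not tested. C1qb was in 4.73% of insulin-led cells, and the part of single cells in its means was not tested either. Of the other C1q chains, C1qa averaged 13.8 and 13.1 RPKM in these groups and C1qc 8.18 and 2.83 RPKM.

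The receptors and signal carriers of inflammatory cytokines ranged widely in detection, and few of them were past 2-fold between the Lcn2 groups. Jak1 was in 89.7% of insulin-led cells, Stat3 in 87.7%, Cebpb, which encodes a C/EBP factor, in 65.0% and the IL-6 receptor gene Il6ra in 54.5%. The interleukin 1 receptor gene Il1r1 was in 97.9%, Irak1 in 92.4%, Sod2 in 75.7% and Nfkbiz in 56.4%. Others were rare, with the co-receptor gene Il1rap in 2.88%, the TNF receptor gene Tnfrsf1b in 2.88%, Osmr in 0.617% and Il22ra1 in 0%, and Il6st in 24.3%. Sod2, which encodes the mitochondrial superoxide dismutase, stood at 230 RPKM in Sample 335 and 232 RPKM in Sample 158, against a mean of 33.3 RPKM in the other cells. Il1r1 stood at 3.93 and 739 RPKM, against 244 RPKM. Of the 12 genes of the IL-6 and STAT3 list, 0 of the 10 with a mean of 1 RPKM were past 2-fold in either direction between Lcn2-positive and Lcn2-negative cells, and Stat3 averaged 67.1 and 56.6 RPKM. Of the 27 genes of the IL-1, TNF and NF-kB list, 1 was higher and 1 lower among 23, and the higher one was the chemokine gene Cxcl16, with 7.95 and 2.78 RPKM. In Sample 335, Cxcl1 was at 521 RPKM and Cxcl16 at 68.2 RPKM, against means of 4.04 and 3.75 RPKM in the other cells. In Sample 158, Birc3 was at 116 RPKM, Icam1 at 62.5 RPKM and Cxcl16 at 55.3 RPKM, against 5.84, 0.871 and 3.75 RPKM. Of the interferon list, 0 of 11 genes were 8-fold or more higher in either cell, and 2 of 9 were higher and 1 lower between the Lcn2 groups. Its proteasome gene Psmb8 averaged 37.6 RPKM in Lcn2-positive and 17.0 RPKM in Lcn2-negative cells, and B2m was in 82.9% and Irf1 in 51.0% of insulin-led cells. Of the 13 genes of iron and lipocalin handling, likewise 0 were, while 3 were 8-fold or more lower in Sample 335, where 15.4% of all genes were, and 4 in Sample 158, where 11.7% were. The ferritin genes Ftl1 and Fth1 were in 99.8% and 99.6% of insulin-led cells. Slc22a17, which encodes a lipocalin 2 receptor, averaged 13.1 RPKM in Lcn2-positive and 9.01 RPKM in Lcn2-negative cells, and was at 0 in both Sample 335 and Sample 158. The iron exporter gene Slc40a1 was at 0.370 RPKM in Sample 335 and 1.07 RPKM in Sample 158, against a mean of 27.0 RPKM in the other cells.

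Likeness to Lcn2 over cells was weak. Likeness was taken as Pearson's r of log2(RPKM + 1) over the 284 full-precision insulin-led cells. Outside the set it was 0.40 for Il4i1, 0.39 for Il4i1b, 0.36 for Plet1, 0.35 for Bspry and 0.33 for C1ra. Of the genes outside the set, 5 of 15085 reached 0.3. Members of the set were left out of this count, and Saa1, Saa2, Saa3, Cfb and Steap4 also passed 0.3. Without Samples 158, 162 and 335, Bspry had 0.31, Plet1 0.10 and C1ra 0.05, and Il4i1 and Il4i1b were in fewer than the 10 cells needed. Within the set it was 0.39 for Saa1, 0.39 for Saa2, 0.38 for Saa3, 0.35 for Cfb, 0.35 for Steap4, 0.19 for C3 and 0.05 for Cfi. Without Samples 158, 162 and 335 these were 0.14, 0.14, 0.18, 0.08, 0.10, -0.03 and 0.08. Most of the cells hold no Lcn2, so these values describe the cells only.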

How the data were processed

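The authors deposited RPKM values, with 1 column per cell and genes named by Entrez ID. CASAVA 1.8.2, FastQC and the build GRCm38 (mm10) are named in the submitters' processing notes, and the aligner, counter, annotation and strand setting are not given. Symbols came from RefSeq and matched 39725 IDs. Members and lists were chosen with earlier results of these data known. Calculations used Python 3.11.15, numpy 2.4.6, pandas 2.3.3 and scipy 1.17.1. Depth was recovered from RPKM values shared by short genes with 1 read, and reads of each member by the length that makes its values whole. In full-precision columns all values under 100 reads were whole within 0.05, which that choice of length largely fixes. Rounded columns had such values for Cfb, C3 and Cfi alone, 9, 9 and 14 of them, all whole. The method was tested on simulated data without rounding. Shares carry exact Clopper-Pearson intervals, and a count of 0 a limit of 3 counts. Ratios are log2 of means plus 1 RPKM. The background of each ratio was every gene whose mean reached 1 RPKM in one or other group. All 8 members are named, with the genes of each list detected in most insulin-led cells or with the largest Lcn2-positive over Lcn2-negative ratios. Genes 8-fold higher in Samples 158 or 335 were named after their values were seen, as were both cells and the windows. PCR reads carry no molecular identifiers, so intervals cover counting error only. RPKM is not a count, so no count model was used, and recovered reads served for depth and thinning.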

Additional observations from a re-analysis of the deposited data

How the results depend on the processing

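The share of insulin-led cells with Lcn2, 15.6%, was 9.26% at 5 RPKM, 6.38% at 10 RPKM, 4.32% at 100 RPKM, 9.47% with at least 3 reads and 10.8% thinned to 250000 reads. It was 26.8% in full-precision columns, 0% in rounded ones and 11.4% without the windows. The share with Cfi, 6.17%, was 3.91% at 10 RPKM, 1.23% at 100 RPKM, 2.44% without multi-hormone cells and 2.97% in rounded columns. Lcn2-negative insulin-led cells had Cfb in 4.39% over both column sets, in 2.20% at 10 RPKM, 0.215% at 100 RPKM, 7.21% in full-precision and 1.49% in rounded columns. The 20 insulin-led cells with 3 or more members were 11 at 5 RPKM, 8 at 10 RPKM, 3 at 100 RPKM, 11 with at least 3 reads, 12 without multi-hormone cells, 0 in rounded columns, 13 thinned and 8 without the windows. The Cfi ratio of PP-led over insulin-led cells, 4.08, was 2.52 with 10 RPKM added and 6.20 without multi-hormone cells. The Cfb ratio of full-precision over rounded cells, 4.34, was 6.63 with 0.1 RPKM added, 1.65 with 10 RPKM added, 2.08 without Samples 158, 162 and 335, 2.33 without the windows, 3.46 without the highest full-precision cell and 3.60 without the highest cell of each group. Directions turned for Cfb in glucagon-led over insulin-led cells, at 0.10 in rounded columns, 0.05 there without the highest cell of each group and 0.99 without the 3 cells, for Cfb in somatostatin-led cells at 0.10 and for Cfi in glucagon-led cells at -0.29, both in rounded columns. The cause was not tested. Among alternatives for the main results, 61 stayed within the interval or 1.5-fold and 32 moved. Of 659 other alternatives, 495 stayed, 159 moved and 5 reversed. Leaving out cells or windows, 3 reads and 100 RPKM were chosen after seeing the data. Likeness over both column sets could not be ranked, with 0 of 10 needed rounded Lcn2 cells. No paired analysis was possible because all cells are 1 group.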
